A study of Mus musculus with 2 samples.

Results

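Gene expression was measured in preparations of erythroid progenitors from mouse fetal liver. The genes encode the subunits of the mitochondrial respiratory chain and the ATP synthase, and the assembly factors of complex I. The members were all genes measured by a probe set of exactly 1 gene whose symbol begins with Nduf, Uqcr, Atp5 or Cox4 to Cox8, and the 4 Sdh genes Sdha, Sdhb, Sdhc and Sdhd. This gave 90 of 17874 genes: 36 of complex I, 4 of complex II, 8 of complex III, 17 of complex IV, 17 of complex V and 8 assembly factors named Ndufaf. They were chosen by symbol and not by their values, but with earlier results of these data known. Each was read by 1 probe set. Both samples were colony-forming unit erythroid (CFU-E) cells from embryos of gestational day 13.5 without the erythropoietin receptor (EpoR-/- per the protocol, Epo KO in the genotype label). Fetal livers were pooled, 40 to 50 for a preparation, and cells with surface markers of lymphoid, myeloid, megakaryocytic or later erythroid cells were depleted with antibodies. The strain is BALB/c per the protocol, and a strain label stands only with the 0 h sample. The cells were held for 1 h without growth factors and were lysed directly (0 h, 1 array) or after a further 3 h in Panserin medium (3 h, 1 array). The treatment label of the 3 h sample reads supplemental growth factors, the protocol says that none were added, and the samples are therefore called by their times. No wild-type sample was analysed here, so every comparison is between these times in cells of this genotype. The sources used here do not say whether the samples shared a pool of livers.

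The respiratory chain passes electrons from NADH and succinate to oxygen and pumps protons across the inner mitochondrial membrane. Complex I (NADH dehydrogenase) and complex II (succinate dehydrogenase) feed ubiquinone, complex III passes the electrons to cytochrome c, complex IV (cytochrome c oxidase) hands them to oxygen, and complex V (ATP synthase) uses the proton gradient to make ATP. Most subunits are encoded in the nucleus and are made, imported and assembled together with a few subunits encoded in mitochondrial DNA. Erythroid progenitors depend on mitochondria for haem and iron-sulfur clusters as well as for ATP, and lose them on the way to the red cell.

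Values are deposited log2 expression values, and differences are 3 h minus 0 h on that log2 scale. Genes were counted if they had a value of at least 5.70, the median of all gene values and called the floor below, on at least 1 array. With 1 array per group no difference has an error, a test or a replicate check, and the small number of arrays sets how precise any value can be. In a bulk sample fewer cells of a type and less RNA per cell cannot be told apart.

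The RefSeq promoter table (GRCm38.p6, windows of 250 bases before to 50 bases after a gene's start) held 79 windows for 74 of the 90 members. Exact matches on both strands were sought for letters bound by factors that are known for nuclear genes of the respiratory chain. These were the full palindrome of NRF1, its shorter part GCATGCGC, which every full match contains, the ETS letters CCGGAAGT and the YY1 letters AAGATGGC. The full NRF1 letters stood in 6 of 79 member windows (7.59%), against 0.971% of all 32851 windows in the table. The shorter NRF1 letters stood in 13.9% of member windows and 2.71% of all, the YY1 letters in 12.7% and 2.75%, and the ETS letters in 6.33% and 3.89%. Any of the 4 was found in 25 members. Such a match is a description of these letters and does not show a bound site. Of the members at or above the floor that hold each kind of letters, the one with the lowest difference is shown. The lowest of those with a window but no match follows, and matched letters are in capitals. Ndufa4l2 (-0.85) and Ndufaf6 (-0.57) had lower differences than any of those shown, but no window, so they were not searched. The windows are chr2:140170396-140170695, plus strand (Ndufaf5, full NRF1 letters), chr10:80406772-80407071, minus strand (Uqcr11, ETS and shorter NRF1 letters), chr3:51408906-51409205, minus strand (Ndufc1, YY1 letters) and chr12:101975689-101975988, minus strand (Ndufb1, no match).
Ndufaf5: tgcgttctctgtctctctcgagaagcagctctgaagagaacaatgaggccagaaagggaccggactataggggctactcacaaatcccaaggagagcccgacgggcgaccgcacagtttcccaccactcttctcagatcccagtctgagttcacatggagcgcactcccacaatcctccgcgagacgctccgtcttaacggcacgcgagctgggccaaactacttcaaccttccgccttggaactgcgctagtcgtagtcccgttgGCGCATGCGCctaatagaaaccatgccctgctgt
Uqcr11: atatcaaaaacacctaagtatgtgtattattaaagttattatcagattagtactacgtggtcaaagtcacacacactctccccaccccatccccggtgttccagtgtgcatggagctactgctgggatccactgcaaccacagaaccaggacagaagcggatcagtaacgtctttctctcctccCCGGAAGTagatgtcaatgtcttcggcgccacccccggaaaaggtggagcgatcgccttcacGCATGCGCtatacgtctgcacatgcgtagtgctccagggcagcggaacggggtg
Ndufc1: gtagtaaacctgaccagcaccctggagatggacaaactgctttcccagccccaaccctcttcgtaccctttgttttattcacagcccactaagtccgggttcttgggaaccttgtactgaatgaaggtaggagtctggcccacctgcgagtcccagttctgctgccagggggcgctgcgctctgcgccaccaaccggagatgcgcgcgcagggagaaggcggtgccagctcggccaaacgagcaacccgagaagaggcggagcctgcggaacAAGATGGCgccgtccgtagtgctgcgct
Ndufb1: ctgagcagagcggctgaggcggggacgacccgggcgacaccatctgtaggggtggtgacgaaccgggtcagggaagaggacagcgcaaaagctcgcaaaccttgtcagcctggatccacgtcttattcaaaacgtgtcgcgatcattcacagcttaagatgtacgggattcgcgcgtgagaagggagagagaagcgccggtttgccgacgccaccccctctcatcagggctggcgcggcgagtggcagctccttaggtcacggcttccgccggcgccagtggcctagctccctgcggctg
Median differences were close with and without the letters. The 10 members at or above the floor with the shorter NRF1 letters had a median difference of -0.13, and the 53 without had -0.11. The 9 with the YY1 letters had a median of -0.17 and the 54 without had -0.11. The 5 with the ETS letters and the 58 without both had -0.12.

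Most subunit transcripts were slightly lower after 3 h. Of the 90 members 77 reached the floor, 75 of them on both arrays. Lower at 3 h were 72 of these 77, beside 48.5% of all 9284 genes at or above the floor, and 5 were higher, beside 51.5% of all genes. After quantile normalization of the arrays against each other 61 of the 77 were lower, beside 51.2% of all genes. After removal of an intensity trend 59 were lower, beside 49.8% of all genes. In both of these settings and as deposited 58 were lower. Of the 75 members above the floor on both arrays, 70 were lower as deposited. Probe sets without a suffix that marks possible matches to several transcripts were also taken alone, with the floor set anew for them. Of the 44 members at or above that floor, 95.5% were lower as deposited, beside 48.7% of all genes in this setting. The median difference of the 77 was -0.11, beside 0.0094 for all genes. The middle 50% ran from -0.18 to -0.042, beside -0.20 to 0.23 for all genes. In size, 68 of the 77 differed by less than 0.31, the robust SD of the differences of all genes. The share of all genes within that size was not computed, so no conclusion is drawn from this count. This SD covers genes of all levels above the floor, whereas 62 members had a mean of both values of at least 10. Genes of that level had a narrower middle 50%, from -0.18 to 0.11. At least 1.5-fold lower was 1 of the 77, Ndufa4l2, beside 4.80% of all genes, and none was 1.5-fold higher, beside 6.94% of all genes. None reached 2-fold in either direction, beside 0.872% of all genes lower and 2.00% higher.

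**Figure D1:**
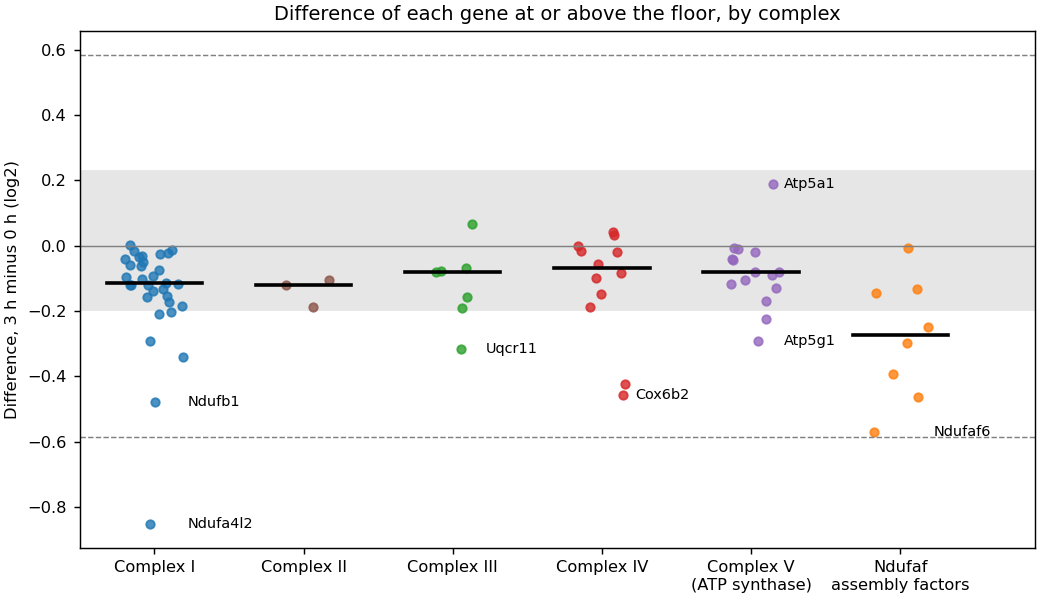
Difference between 3 h and 0 h (log2, vertical axis) of each gene at or above the floor, by complex (horizontal axis); each point is 1 gene, black bars are medians, the grey band is the middle 50% of all genes and dashed lines mark 1.5-fold. Most points lie below 0 and within the grey band, and the 8 Ndufaf genes have the lowest median, -0.27. Of the 72 points below 0, 11 were above it after quantile normalization.

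Many members have high signals, where differences between these arrays were smaller. Where the mean of both values was at least 10, 58 of 62 members were lower (93.5%), beside 56.7% of the 1289 genes of that range, and the medians were -0.094 and -0.039. The middle 50% of these 1289 genes ran from -0.18 to 0.11. Among members below that level, 14 of 15 were lower (93.3%), beside 47.2% of 7995 genes, and the medians were -0.25 and 0.020. Of these 15, 8 were Ndufaf assembly factors with a median of -0.27, and 7 were subunits with a median of -0.21. The subunits included Cox6a2 and Cox7a1, which reached the floor only at 0 h, where they were higher. The share of members that were lower was therefore about the same in both ranges, while the sizes were larger in the dimmer one.

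**Figure D2:**
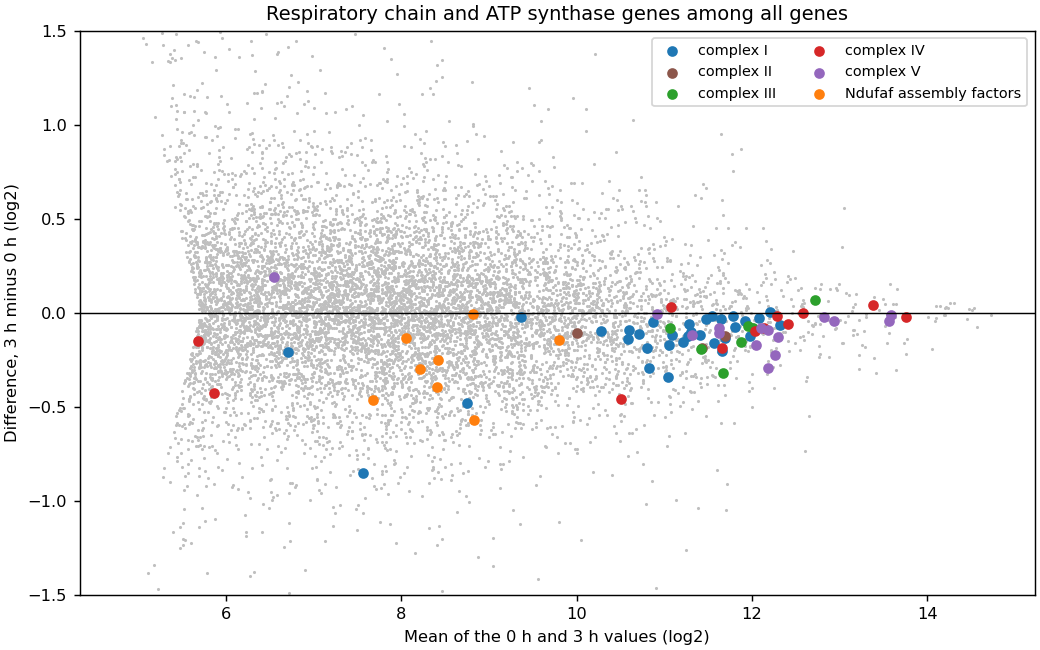
Difference between 3 h and 0 h (log2) against the mean of both values (log2); grey points are all genes at or above the floor and coloured points are the members by complex. The members gather at the right, slightly below 0, with Ndufa4l2 (-0.85) as the lowest of them, and 94 other genes lie beyond the vertical axis.

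Markers of the cell types that a fetal liver preparation can hold moved in the same samples. Counts and medians here cover all measured markers, also those below the floor. Of 10 erythroid markers 7 were higher and 3 lower, with a median difference of 0.69, and their summed level on the log2 scale went from 13.20 to 13.65. Gata1 (9.32 and 10.15 at 0 h and 3 h) and Klf1 (12.03 and 12.31), which encode erythroid transcription factors, were higher, whereas Epor (-0.19), Ank1 (-0.62) and Urod (-0.094) were lower. Slc4a1 had the largest difference of the erythroid markers, from 5.47, below the floor, to 8.30 (2.83). Of 15 hepatocyte markers, all of them above the floor on both arrays, 13 were lower and 2 higher, with a median of -0.19 and a summed level of 16.62 and 16.54. The 2 higher ones were Krt8 (0.95) and Krt18 (0.88). Among the lower ones, Afp (14.60 and 14.53) and Alb (14.15 and 13.96) lay near the highest value of any probe set, 14.7 on each array. Values of the respiratory chain genes are thus those of the whole preparation and not of erythroid cells alone. Of 11 granulocyte markers 10 were higher and Csf3r (-0.53) was lower, with a median of 0.88 and a summed level of 12.66 and 13.61, and 6 were above the floor on both arrays. Of 11 macrophage markers 7 were higher and 4 lower, with a median of 0.17 and a summed level of 10.52 and 11.14. Only 4 of these were above the floor, 3 of them higher and 1 lower, with a median of 0.90. These were Lyz2 (1.83), Csf1r (1.00), Fcgr3 (0.80) and Vcam1 (-0.98). The markers below the floor included C1qa, C1qb and Mrc1. Of 6 megakaryocyte markers 1 was above the floor on both arrays (median of all 6 0.085, summed level 8.17 and 8.57), and of 8 lymphoid markers none was (median 0.13, summed level 7.58 and 7.90). The part of these cell types in the differences of the respiratory chain genes was not tested.

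Complex I, the largest complex of the chain, had 32 of its 36 measured genes at or above the floor. Of these 31 were lower as deposited, 26 after quantile normalization and 25 after trend removal, and the median was -0.11. Beside these counts, and those by complex below, stand 48.5%, 51.2% and 49.8% of all genes in these settings. Products of the nuclear genes of the complex I catalytic core carry the flavin and the iron-sulfur clusters. These genes were lower in 6 of 6 measured, with a median of -0.13 and a range from -0.20 to -0.048. Ndufs7, whose product holds the last cluster before ubiquinone, had values of 11.76 at 0 h and 11.56 at 3 h. Ndufv1, which encodes the flavin and NADH binding subunit, had 11.29 and 11.13, and its partner Ndufv2 had 11.65 and 11.49. The 6 core genes kept their lower values in both scaling settings. Ndufs1, the core gene that differed least, had 10.90 and 10.85, and Ndufs3 (11.15 and 11.03) and Ndufs8 (10.33 and 10.23) lay between these.

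Accessory subunits surround the core and make up most of complex I. The Ndufb series, whose products sit in the membrane arm, was lower in 10 of 10 genes as deposited, with a median of -0.12. In this series Ndufb1 had 8.99 at 0 h and 8.51 at 3 h, a difference of -0.48 or 1.39-fold. Next came Ndufb10, with 10.98 and 10.68 (-0.29). The smallest differences were those of Ndufb11 (12.10 and 12.07) and Ndufb8 (11.67 and 11.63). Ndufb11 turned slightly higher in both scaling settings and Ndufb8 and Ndufb9 after trend removal, so only the larger differences of this series kept their sign. Ndufc1, a small membrane arm subunit, went from 11.22 to 10.88 (-0.34), and Ndufc2 from 11.36 to 11.26 (-0.10). Ndufs4, an accessory subunit needed for a stable complex, had 6.82 and 6.61 (-0.21). At the other end Ndufa1 had 12.21 on both arrays, and Ndufa13 (-0.013) and Ndufa6 (-0.016) differed about as little and turned slightly higher in both scaling settings. Accessory genes at or above the floor thus ran from differences of about 0 to that of Ndufb1. Only Ndufa4l2, counted with complex I by its symbol, was lower.

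Ndufa4l2 encodes a paralog of Ndufa4 that is known to be induced by low oxygen and to lower the activity of complex I. It had a value of 7.99 at 0 h and 7.13 at 3 h. The 3 h sample was the lower one, by 1.81-fold (-0.85), and this was the largest difference of all 77 members at or above the floor. It kept its size after quantile normalization and after trend removal (-0.88 in both). Ndufa4 itself, which is counted here with complex I by its symbol although its product is now placed in complex IV, had 11.47 and 11.35 (-0.12). With both genes counted in complex IV the medians were -0.11 for complex I and -0.090 for complex IV.

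The 8 Ndufaf assembly factors build complex I without staying in it. All 8 were lower at 3 h, also in both scaling settings, with a median of -0.27 and a range from -0.57 to -0.0066. Ndufaf6, a factor of early assembly, had 9.12 at 0 h and 8.55 at 3 h (1.48-fold lower). Ndufaf5, which modifies the core subunit Ndufs7, had 7.91 and 7.45 (1.38-fold lower). Ndufaf7, which encodes a mitochondrial methyltransferase, had 8.60 and 8.21 (1.31-fold lower). These 3, and next to them Ndufaf2 (8.37 and 8.07) and Ndufaf3 (8.55 and 8.30), lay below the middle 50% of all genes, which ended at -0.20. Ndufaf8 (-0.14), the partner of Ndufaf5, and Ndufaf4 (-0.13) differed less, and Ndufaf1, a factor of membrane arm assembly, had 8.83 and 8.82. The subunits of all complexes had a median of -0.098 over 69 genes. All 8 factors had a mean of both values below 10, and the 7 subunits below that level had a median of -0.21, closer to that of the factors.

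**Figure D3:**
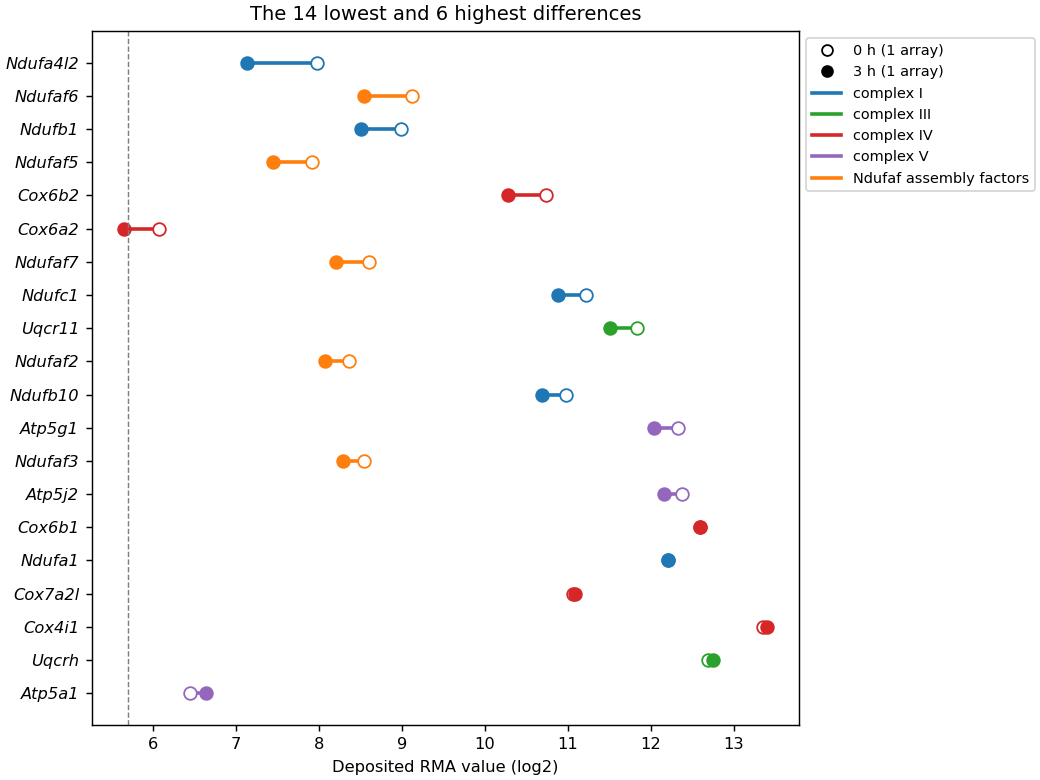
Deposited log2 values (horizontal axis) at 0 h (open circles) and 3 h (filled circles) of the 14 members with the lowest and the 6 with the highest differences at or above the floor; the dashed line is the floor, colours mark the complex and there is 1 array per time. In the upper 14 rows the filled circle lies to the left; in the lower 6 rows the circles nearly coincide except for Atp5a1.

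Complex II, which is also the succinate dehydrogenase of the citric acid cycle, had 3 of 4 genes at or above the floor, all lower in each scaling. Sdhb, the iron-sulfur subunit, had 11.53 and 11.34 (-0.19). The membrane anchors Sdhd (11.76 and 11.64) and Sdhc (10.06 and 9.96) differed by -0.12 and -0.10. Sdha, the flavin subunit, had 4.02 and 3.77, below the floor at both times, so the catalytic pair could not be compared.

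Complex III had 7 of 8 genes at or above the floor, of which 6 were lower in each scaling and Uqcrh higher, with a median of -0.081. Uqcr11, a small membrane subunit, had 11.83 and 11.51, a difference of -0.32 or 1.25-fold. Uqcrq, another small subunit, had 11.51 and 11.32 (-0.19), and the core protein gene Uqcrc1 had 11.95 and 11.80 (-0.16). The other core protein gene Uqcrc2 (-0.069), Uqcrb (-0.078) and Uqcrfs1 (-0.081), which encodes the Rieske iron-sulfur protein, differed by less. Uqcrh, the hinge subunit that helps cytochrome c dock, had 12.69 at 0 h and 12.75 at 3 h, higher by 0.067. Members of complex III therefore did not all differ by the same amount, and the small subunit Uqcr11 stood lowest.

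Complex IV had 12 of 17 genes at or above the floor and a median of -0.069. Lower as deposited were 10 of the 12, beside 48.5% of all genes. In both scaling settings 7 of the 12 were lower, closer to the shares of all genes, 51.2% and 49.8%. The widely expressed subunits of complex IV differed little. Cox4i1, which encodes the main form of the largest nuclear subunit, had 13.36 and 13.40, and Cox6b1 had 12.59 on both arrays. Cox5a (12.18 and 12.10), Cox5b (12.44 and 12.38), Cox6c (12.09 and 11.99) and Cox7a2 (12.30 and 12.28) differed by -0.098 at most. Cox7a2 turned slightly higher in both scaling settings. Cox8a differed most among the widely expressed forms, with 11.75 and 11.56 (-0.19). Cox7a2l, which encodes a factor that joins complexes III and IV into supercomplexes, had 11.06 and 11.09 and was higher by 0.032.

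Several subunits exist as paralogs, of which one is expressed widely and others in heart, muscle or testis. Levels of different probe sets cannot be set against each other, so each form is compared only with itself. Cox6b2, known as the testis form of Cox6b1, had a value of 10.74 at 0 h and 10.28 at 3 h. It was thus above the floor on both arrays and 1.37-fold lower at 3 h (-0.46), where Cox6b1 had the same value as at 0 h. Cox6a2, the heart and muscle form, crossed the floor from 6.08 to 5.66 (-0.42), while Cox6a1 had 13.77 and 13.75 and turned slightly higher in both scaling settings. Cox7a1, another heart and muscle form, lay at the floor (5.76 and 5.61). The remaining restricted forms were below the floor on both arrays, among them Cox4i2 (5.41 and 5.43), Cox8b (4.76 and 4.67), Cox8c (4.55 and 4.53) and Cox7b2 (2.52 and 2.55). Cox6a2 and Cox7a1 reached the floor only at 0 h, where they were higher, so their direction was set in part by that floor. Without Cox6a2, Cox6b2 and Cox7a1 the median of complex IV was -0.019.

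**Figure D4:**
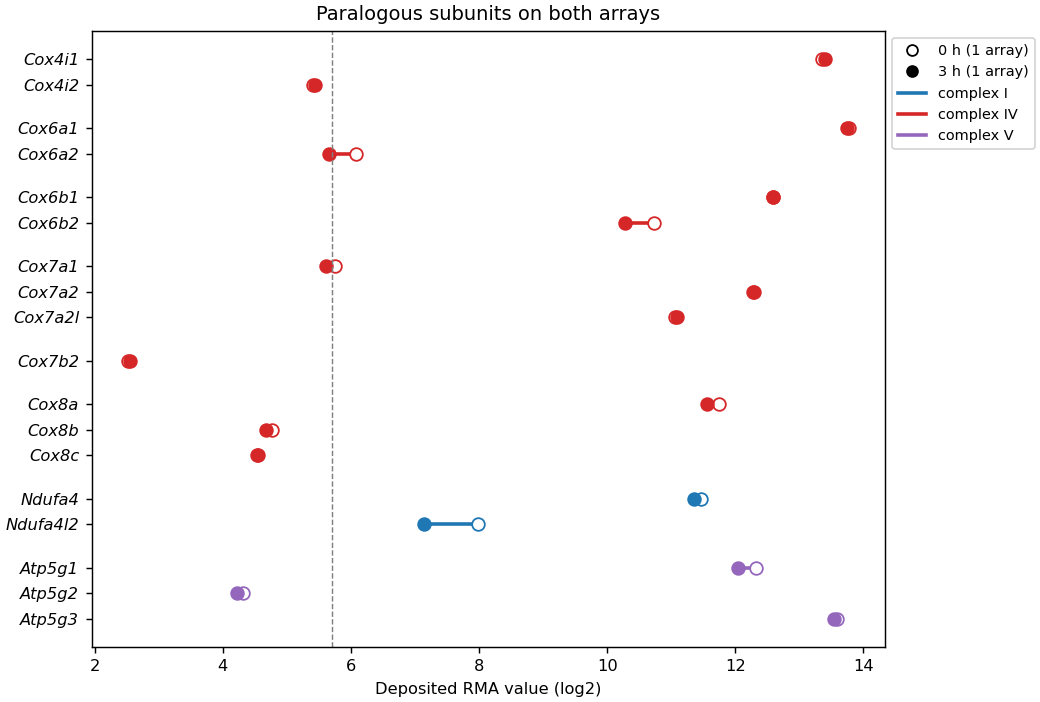
Deposited log2 values (horizontal axis) of paralogous subunits at 0 h (open circles) and 3 h (filled circles), 1 array each, with the floor as a dashed line; positions of different genes cannot be compared, since their probe sets differ. Cox6b2 and Ndufa4l2 show a visible gap between the times, with differences of -0.46 and -0.85, while Ndufa4 differs by -0.12 and Cox6b1 has the same value at both times.

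The ATP synthase had 15 of 17 genes at or above the floor, with a median of -0.081. Lower were 14 as deposited, 11 after quantile normalization and 10 after trend removal. Of the F1 part (catalytic head and central stalk), Atp5b, which encodes the catalytic beta subunit, had 13.59 and 13.58, and Atp5d had 12.84 and 12.82. Both turned slightly higher in the scaling settings. Atp5e (11.67 and 11.57) differed by -0.11. Atp5a1, which encodes the alpha subunit, was the member with the highest difference, at 6.46 and 6.65 (0.19, and 0.11 after quantile normalization). Its signal lay near the floor, and Atp5a1 dropped out with the floor 1 log2 unit higher.

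The membrane part and peripheral stalk of the synthase were lower in 11 of 11 genes as deposited, with a median of -0.089. Atp5g1, which encodes a precursor of the rotating c subunit, had 12.33 at 0 h and 12.04 at 3 h (-0.29). Its paralog Atp5g3, whose mature product is the same c subunit, had 13.59 and 13.54 (-0.045), and the paralog Atp5g2 was below the floor (4.32 and 4.22). Among the c subunit genes above the floor the lower value was thus mainly that of Atp5g1. Atp5j2, the f subunit, had 12.38 and 12.16 (-0.22), Atp5j, the coupling factor of the stalk, had 12.13 and 11.96 (-0.17), and Atp5l, the g subunit, had 12.36 and 12.23 (-0.13). Atp5o, which joins the stalk to the head, had 11.38 and 11.26. Atp5mpl, Atp5k, Atp5pb, Atp5h and Atp5md had differences between -0.089 and -0.0054, the last for Atp5md (10.92 on both arrays). Atp5md was slightly higher in both scaling settings and Atp5h after trend removal.

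The 13 members below the floor on both arrays included subunits that cells with a working chain need. Besides Sdha these were the gamma subunit gene of the synthase Atp5c1 (4.72 and 4.42), Ndufab1 (3.30 and 3.37), which encodes the mitochondrial acyl carrier protein, Ndufb4 (3.27 on both), Ndufa12 (4.22 and 3.65), Ndufa3 (5.14 and 5.07), Uqcr10 (4.53 and 4.44) and Cox7c (4.17 and 3.94). Such a value from 1 probe set cannot tell a silent gene from a probe set that reads it poorly. With these 13 included, 90.0% of the 90 members were lower, beside 49.8% of all 17874 genes, and the median was -0.099.

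Other genes that serve the chain were set beside its subunits, in lists chosen with earlier results of these data known. The counts of lower genes in these lists stand beside 48.5% of all genes. Assembly factors of the complexes other than the Ndufaf genes had a median of -0.15 over 35 of 37 genes at or above the floor, with 29 lower (82.9%) and 6 higher. Coa7, a factor of complex IV, had 6.38 and 5.69, below the floor at 3 h (1.61-fold lower), and Sdhaf1, a factor of complex II, had 9.22 and 8.60 (1.54-fold lower). These 2 of 35 genes were at least 1.5-fold lower, beside 4.80% of all genes, and Coa7 reached the floor only at 0 h. The highest were Atpaf1, a factor of the ATP synthase (7.37 and 7.70), and Ttc19, a factor of complex III (6.59 and 6.91). Assembly factors of several complexes were therefore lower, but not all of them.

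Electron carriers and ubiquinone synthesis genes had a median of -0.13 over 15 genes, with 11 lower (73.3%) and 4 higher. Coq5 (8.91 and 8.38) and Coq8b (7.43 and 6.99), which act in ubiquinone synthesis, were lowest, and Pdss2 (0.16) and Coq10b (0.10) highest. Cytochrome c1 of complex III, encoded by Cyc1, had 12.61 and 12.48, and the cytochrome c gene Cycs had 11.13 and 11.05. The citric acid cycle and pyruvate genes had a median of -0.10 over 17 genes, with 13 lower (76.5%) and 4 higher. This median was -0.057 after quantile normalization and -0.062 after trend removal. Pyruvate carboxylase (Pcx, 7.55 and 7.18) and the succinyl-CoA ligase subunit Suclg2 (11.21 and 10.96) were lowest. Of the pyruvate dehydrogenase complex, Dlat (6.74 and 7.08) and Dld (10.75 and 10.92) were highest.

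Nuclear regulators of the chain and genes that maintain and transcribe mitochondrial DNA went both ways, with 12 lower (63.2%) and 7 higher of 19 and a median of -0.15. Ppargc1b, a coactivator that raises expression of respiratory chain genes, had 6.75 at 0 h and 5.67 at 3 h. It reached the floor only at 0 h, where it was higher, so the size of this difference is uncertain. The related coactivator gene Ppargc1a had 4.67 and 3.63, below the floor at both times, and Pprc1 had 9.40 and 9.17. The factor genes Nrf1 (6.92 and 6.74) and Tfam (6.77 and 6.58), whose products act on nuclear and mitochondrial promoters, had differences of -0.17 and -0.18, and Polg2, a subunit of the mitochondrial DNA polymerase, one of -0.41. Gabpa, which encodes an ETS factor known to act on respiratory chain promoters, was the highest of the list, with 9.96 and 10.40 (1.36-fold), followed by Mterf2 (0.21). All 4 list medians were negative also after quantile normalization and trend removal.

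**Figure D5:**
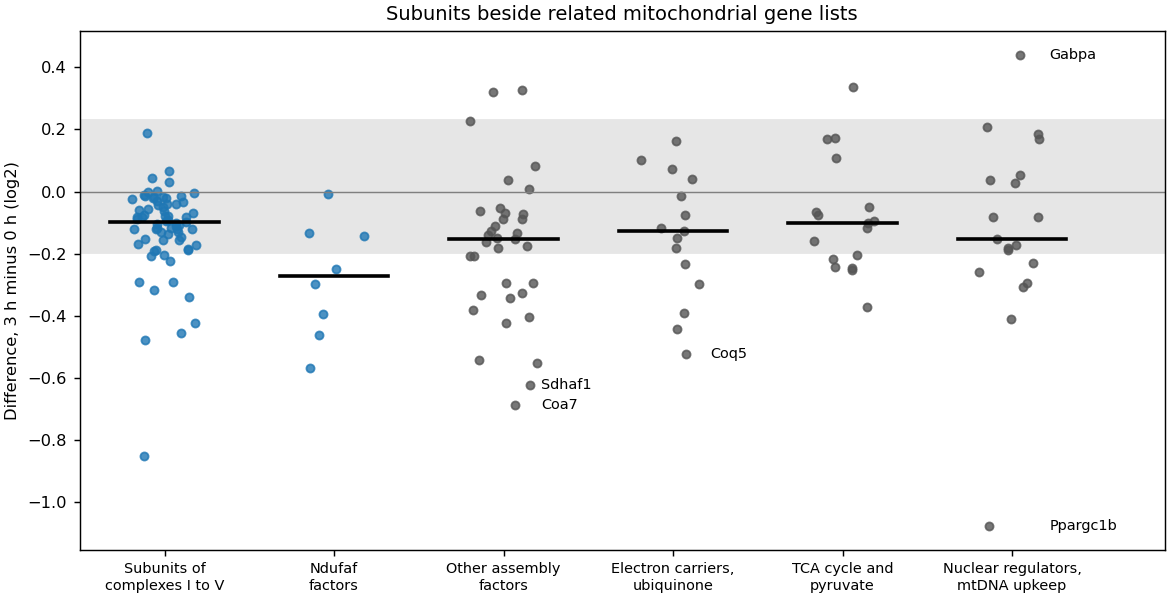
Difference between 3 h and 0 h (log2, vertical axis) of subunits, Ndufaf factors and 4 related mitochondrial gene lists (horizontal axis) at or above the floor; each point is 1 gene, black bars are medians and the grey band is the middle 50% of all genes. All 6 medians lie below 0, from -0.098 for the subunits to -0.27 for the Ndufaf factors, with Ppargc1b (-1.08, above the floor only at 0 h) and Gabpa (0.44) at the ends of the last list.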

How the data were processed

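Expression was measured on 1 Affymetrix array of each sample, with groups taken from the times in the titles. Labelling with biotin started from 1.5 µg of total RNA, per the labels' protocols. The authors deposited log2 values from RMA and the affy package, per the submitters' processing notes; the sources used here do not give their versions or name the arrays that went into the normalization. RMA equalizes the distributions of arrays, so a shift of all transcripts could not be seen.

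Values were used as deposited. Of 20666 probe sets 17918 had 1 gene in the platform annotation, 79 several and 2669 none. Probe sets of a gene were averaged, and no member needed it. Member probe sets with a suffix that marks possible matches to several transcripts or genes numbered 35. All 90 members matched RefSeq genes by Entrez ID under the same symbol. No test was made with 1 array per group. Coordinates are those of the promoter table, and none are given for probe sets, whose build the sources do not name.

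Members and lists were chosen with earlier results of these data known. The rule for named genes took members at least 1.5-fold apart, the 3 highest and 3 lowest of each complex, all paralog sets, all Sdh genes, the 2 highest and 2 lowest of each related list, and Ppargc1a, Ppargc1b, Pprc1, Nrf1, Gabpa and Tfam. Other genes named, such as Cyc1 and Cycs, and the promoters shown were chosen after values were seen. Alternatives were quantile normalization, loess trend removal (span 0.3), the highest probe set of a gene by mean, no suffixed probe sets, no floor, a floor 1 log2 unit higher, a floor on the mean of both values, and means in place of medians. Added after the data were seen were a level of 10 as floor, Ndufa4 and Ndufa4l2 in complex IV, and restricted isoforms left out. The work used Python 3.11.15, numpy 2.4.6, pandas 2.3.3, statsmodels 0.14.6 and matplotlib 3.10.9, and the steps were tested on simulated data.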

Additional observations from a re-analysis of the deposited data

How the results depend on the processing

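The median of the members was negative in each alternative run, and it moved by more than 1.5 times only after quantile normalization, to -0.061. There the medians were -0.064 for complex I, -0.025 for complex III, -0.041 for complex IV and -0.050 for complex V, and that of all genes changed sign to -0.0089. After trend removal they were -0.038 for complex III, -0.026 for complex IV and -0.039 for complex V. The share of members that were lower went from 93.5% to 79.2% after quantile normalization and to 76.6% after trend removal. Beside these stood 48.5%, 51.2% and 49.8% of all genes. For complex IV the median was -0.038 with the floor 1 log2 unit higher and with values of at least 10, -0.12 as a mean, and -0.019 without restricted isoforms. With values of at least 10 or without restricted isoforms the count of members 1.5-fold lower was 0, with no test made, since Ndufa4l2 drops out. With values of at least 10 the median of all genes was -0.039 and that of the 3 remaining nuclear regulators 0.037. No replicate can be left out. No paired analysis was possible because each group has 1 array. Probe sets with the highest mean gave the same member values, since each member has 1 probe set. Signals near the floor are less certain.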
